A study of Mus musculus with 30 samples.

Results

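The genes described here encode the coat proteins, cargo receptors, tethers and fusion proteins that carry newly made protein between the endoplasmic reticulum (ER) and the Golgi apparatus. They were chosen as a list of 44 named genes, and 43 of them had at least 1 probe set with a single gene symbol in the platform annotation, out of 15964 genes measured in the series. Tmed10 was not analysed here. The 43 genes had 93 probe sets, and 26 genes had over 1. The probe set with the highest mean over the 10 arrays of its chip stood for a gene with several.

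Tissue came from dorsal pancreatic buds of NMRI mice at embryonic day 12.5 (e12.5), e13.5, e14.5, e15.5 and e16.5, with no genetic change or treatment named in the labels. Buds of a litter were pooled before RNA extraction, RNA of each pool was labelled in 2 reactions, and each labelled sample went onto chips A, B and C of the Affymetrix MG-U74 version 2 set, which gave 30 arrays. The ventral pancreas was left out, and the labels do not say how many embryos each stage holds. Values are log2 levels per probe set, so a difference of 1 is a 2-fold change. With 1 pool per stage, stage and pool cannot be told apart, and the spread between reactions of a stage is technical. The median SD between reactions over these genes and stages was 0.041 log2 units, and the largest difference between reactions was 0.27, in Sar1a. The pancreas markers Ptf1a, a transcription factor of acinar cells, and Cpa1, a carboxypeptidase, were at mean log2 levels of 7.22 and 10.75 at e12.5 and of 9.16 and 13.31 at e16.5.

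Secretory proteins leave the ER in vesicles coated by COPII, whose assembly starts when the GTPase SAR1 recruits SEC23 and SEC24 as an inner layer and SEC13 and SEC31 as an outer cage. SEC24 binds cargo directly or through receptors. Vesicles coated by COPI, the coatomer complex recruited by the GTPase ARF1, return escaped ER proteins and recycling receptors from the Golgi. Tethers and Rab GTPases hold an arriving vesicle and SNARE proteins fuse it. The exocrine pancreas is the organ in which this route was first worked out, because its acinar cells make and export large amounts of digestive enzymes.

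The stage trend asked which of these genes rose or fell along a line over the 5 stages. Among the 43 genes, 17 rose, 2 fell and 24 did not pass (slope of a limma fit to the 5 pool means, with p-values adjusted over all 36701 probe sets by the Benjamini-Hochberg method and a threshold of 0.05). The rising share was 39.5%, beside 11.9% of all genes, and the falling share was 4.65%, beside 17% of all genes. The median fitted change over the 4 days was 0.32 log2 units, beside 0.02 over all genes, and 36 of the 43 slopes were positive. Fitted changes ran from -0.95 for Sec23a to 2.34 for Tmed3. The receptors held the highest share of rising genes, with 6 of 9, followed by the COPI group with 6 of 12, the SNAREs, tethers and Rabs with 3 of 11 and the COPII group with 2 of 11. Both falling genes belonged to COPII, where the falling share of 18.2% lay near the 17% of all genes. The count rested on single pools: 8 genes rose without the e13.5 pool (beside 7.16% of all genes) and 6 rose without the e16.5 pool (beside 4.72% of all genes). Calls held without any 1 pool and under all other alternatives tried for Sec23a, Sec23b, Cope, Arfgap3, Lman1 and Tmed3.

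**Figure D1:**
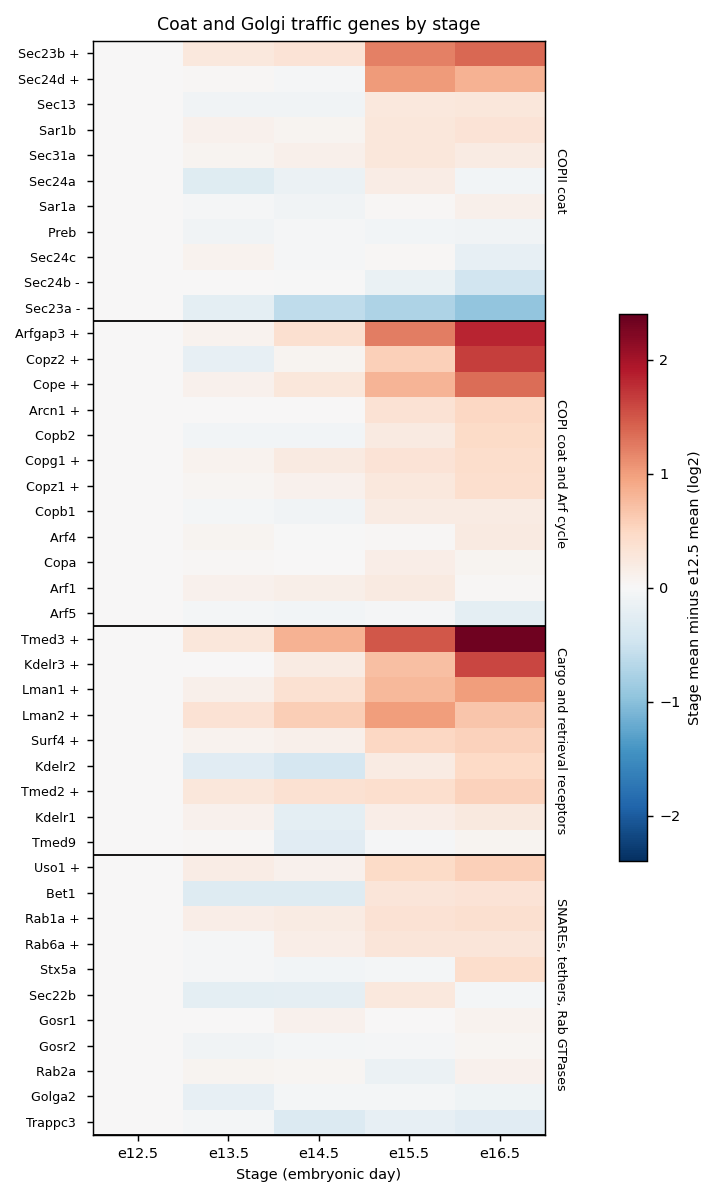
Mean log2 level of each of the 43 genes at each stage minus its mean at e12.5, as colour from blue (lower) through white to red (higher), with genes in rows, grouped by role, and stages in columns. A plus or minus sign after a gene name marks a rising or falling stage trend; Tmed3 reached 2.32 at e16.5 and Sec23a reached -0.94.

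The promoters of these genes were searched for the short sequences that transcription factors of the unfolded protein response are known to bind. RefSeq promoters of GRCm38.p6, each of 250 bases before to 50 bases after a transcription start, were held for 38 of the 43 genes. The ER stress element (CCAAT and CCACG with 9 bases between them) and the ER stress element II (ATTGG and CCACG with 1 base between them) were found on either strand in none of the 38, and in 0.119% and 0.037% of all promoters. The unfolded protein response element TGACGTGG, which the spliced form of XBP1 is known to bind, was found in 7 of the 38 genes (18.4%), in 0.676% of all 32851 promoters and in 1.071% of the 12694 genes on the arrays with a promoter. Its shorter core ACGTG, which lies inside that element, was found in 24 of the 38 genes (63.2%), in 26.808% of the genes on the arrays with a promoter and in 19.625% of all promoters. Median GC content was 59.0% in these genes' promoters, 59.0% in those of genes on the arrays and 52.7% in all promoters. The 8 sites are shown with 10 bases on each side where the promoter reaches that far, 5′ to 3′ on the gene's strand, because these genes share the element while their levels moved in different ways. Capitals mark the element, as TGACGTGG on the gene's strand or CCACGTCA where it lies on the other.
Sec24d (chr3:123267460-123267487, plus strand): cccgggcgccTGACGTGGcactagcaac
Kdelr3 (chr15:79516368-79516395, plus strand): ggccgccccgCCACGTCAccgcgcggcc
Sec23a (chr12:59011994-59012021, minus strand): tcctccccttTGACGTGGcagaggcggc
Copb2 (chr9:98563714-98563741, plus strand): cccggaagttCCACGTCAgtgggttggc
Copb1 (chr7:114254691-114254718, minus strand): ccgcccccttCCACGTCAgccaaggact
Stx5a, first site (chr19:8741423-8741450, plus strand): ggcgcagcagCCACGTCAccgagttagg
Stx5a, second site (chr19:8741453-8741473, plus strand): tacgtctaggTGACGTGGcgg
Arf1 (chr11:59228229-59228256, minus strand): cggcaggcgcTGACGTGGctgccgtcag
Of these 7 genes, Sec24d and Kdelr3 rose, Sec23a fell and the other four did not pass. The element was thus held by 2 of 14 rising genes with a promoter, 1 of 2 falling genes and 4 of 22 that did not pass. These counts are a description of sequence, and binding was not measured.

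The element of Sec24d covered the bases from 26 to 19 before the listed start, and that of Kdelr3 those from 30 to 23 before it. The 150 bases before the start of both genes are given because they are the rising genes that hold the element; this choice was made after the values were seen. For Sec24d they lie at chr3:123267346-123267495 on the plus strand, inside the span of the gene model, which begins at 123264801, and so before a start other than its first; for Kdelr3 they lie at chr15:79516258-79516407 on the plus strand.
Sec24d: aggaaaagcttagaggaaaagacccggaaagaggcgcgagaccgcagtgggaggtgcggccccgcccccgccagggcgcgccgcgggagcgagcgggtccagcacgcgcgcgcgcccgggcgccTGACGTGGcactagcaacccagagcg
Kdelr3: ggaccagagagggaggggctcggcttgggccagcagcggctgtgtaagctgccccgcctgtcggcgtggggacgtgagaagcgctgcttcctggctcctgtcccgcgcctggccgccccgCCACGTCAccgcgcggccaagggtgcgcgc

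Within the COPII group, Sec23b and Sec24d rose, Sec23a and Sec24b fell and 7 genes did not pass. Each share was 18.2%, beside 11.9% rising and 17% falling over all genes, and the median change was 0.13. SEC23 makes SAR1 hydrolyse its GTP, and mice and humans have the paralogs SEC23A and SEC23B. On its arrays Sec23b had log2 levels of 8.64 and 8.72 at e12.5, 8.95 and 8.92 at e13.5, 8.96 and 9.05 at e14.5, 9.94 and 9.84 at e15.5, and 10.01 and 10.08 at e16.5. All arrays of the last pair of stages lay above all earlier ones. Its fitted change was 1.47 ± 0.21 (log2 over 4 days ± SE, n = 5 pools; limma adjusted p = 0.00498), or 2.78-fold. A dimmer probe set of Sec23b had a change of 0.46 that did not pass (adjusted p = 0.0746), and their average had one of 0.97 that passed. Sec23b lies at chromosome 2, 144556229 to 144590753.

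Sec23a went the other way. Its log2 levels were 8.08 and 8.11 at e12.5, 7.81 and 7.92 at e13.5, 7.46 and 7.53 at e14.5, 7.38 and 7.33 at e15.5, and 7.10 and 7.21 at e16.5, so that each stage lay below the one before with no overlap. The fitted change was -0.95 ± 0.10 (adjusted p = 0.00192), a 1.94-fold fall, and the other probe sets of Sec23a also fell, by 0.96 and 0.36 on the log2 scale. Sec23a lies at chromosome 12, 58958384 to 59012017.

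Of the SEC24 paralogs, which select cargo, Sec24d had log2 levels of 6.25 and 6.26 at e12.5, 6.30 and 6.23 at e13.5, 6.21 and 6.25 at e14.5, 7.24 and 7.32 at e15.5, and 7.11 and 7.07 at e16.5. The first 3 stages overlapped, and both later stages lay above them by more than the spread between reactions. Its fitted change was 1.07 ± 0.27 (limma adjusted p = 0.0248). The call was lost when some pools were left out. The slope was 1.40 (limma adjusted p = 0.06) without e12.5, 1.02 (0.0719) without e13.5 and 1.22 (0.0885) without e16.5. Sec24d lies at chromosome 3, 123264801 to 123365641. Sec24b had mean log2 levels of 4.03, 4.04, 4.02, 3.88 and 3.58 from e12.5 to e16.5 and a change of -0.43 ± 0.13 (adjusted p = 0.044). All of these lay below the median of its chip, so a level above background is not shown. The Sec24b call was lost without the e13.5, e14.5 or e16.5 pool and without 4 single arrays, with changes from -0.43 to -0.19 (adjusted p from 0.0507 to 0.46); the arrays were those of reaction 2 at e12.5, e13.5, e14.5 and e15.5.

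The other COPII genes changed by less. Sec24a had stage means of 7.67, 7.38, 7.53, 7.85 and 7.60 with a change of 0.13 ± 0.17, and Sec24c had 7.83, 7.91, 7.80, 7.85 and 7.64 with -0.18 ± 0.11. Of the GTPase pair that starts the coat, Sar1a had stage means of 9.64, 9.61, 9.56, 9.67 and 9.77 (change 0.12 ± 0.10). Sar1b, on a probe set that may detect related transcripts, had 7.14, 7.24, 7.20, 7.41 and 7.46 (change 0.32 ± 0.10, limma adjusted p = 0.0563), and it passed under each of the 3 other scalings (0.36 to 0.43, adjusted p from 0.0253 to 0.0476). The outer cage genes Sec13 (0.35 ± 0.14, adjusted p = 0.113) and Sec31a (0.23 ± 0.10, adjusted p = 0.133) did not pass, although Sec31a did so after cyclic loess (0.39, adjusted p = 0.0199). Preb, which encodes the exchange factor that loads SAR1 with GTP, had the smallest slope of the group. Its arrays had log2 levels of 5.26 and 5.23 at e12.5, 5.19 and 5.13 at e13.5, 5.23 and 5.20 at e14.5, 5.22 and 5.17 at e15.5, and 5.24 and 5.10 at e16.5, with a change of -0.05 ± 0.09 (adjusted p = 0.737). The e13.5 arrays of Preb lay below those of e12.5 and e14.5 and the e16.5 arrays spanned most of the range, with all 5 stages below the median of the chip.

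**Figure D2:**
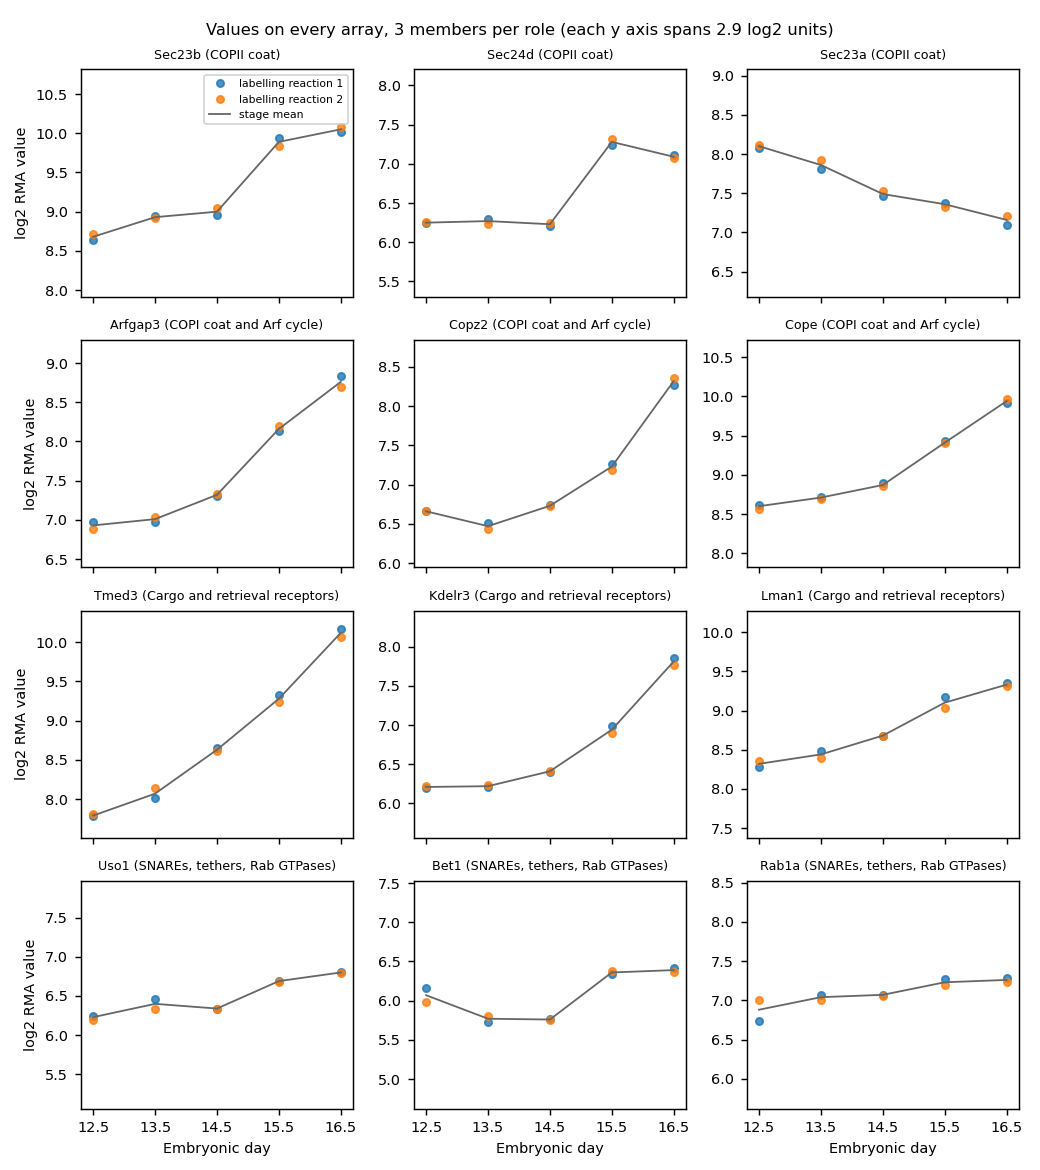
Log2 RMA value on every array against embryonic day for the 3 genes of each role with the largest absolute slope, with 1 point per labelling reaction and a line through the stage means; every y axis spans the same number of log2 units. Points of the same stage lie close together, Sec24d steps up between e14.5 and e15.5, and Tmed3 climbs at every stage.

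In the COPI group 6 of 12 genes rose and none fell, with a median change of 0.42. The steepest was Arfgap3, whose product makes ARF1 hydrolyse GTP on coatomer vesicles. Its log2 levels were 6.97 and 6.89 at e12.5, 6.97 and 7.04 at e13.5, 7.31 and 7.33 at e14.5, 8.13 and 8.20 at e15.5, and 8.83 and 8.69 at e16.5. Stages from e14.5 on lay apart from each other and above the first pair, which touched. The fitted change was 1.93 ± 0.24 (limma adjusted p = 0.00326), or 3.80-fold; the gene lies at chromosome 15, 83299739 to 83350375. Cope, the epsilon subunit of coatomer, had 8.62 and 8.57 at e12.5, 8.72 and 8.69 at e13.5, 8.89 and 8.86 at e14.5, 9.43 and 9.40 at e15.5, and 9.91 and 9.97 at e16.5 in log2 units. No stages of Cope overlapped, and the change was 1.36 ± 0.18 (adjusted p = 0.00431), or 2.56-fold. Cope lies at chromosome 8, 70302767 to 70313002.

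Copz2 encodes the second form of the zeta subunit. Its log2 levels were 6.67 and 6.66 at e12.5, 6.51 and 6.44 at e13.5, 6.74 and 6.73 at e14.5, 7.26 and 7.19 at e15.5, and 8.27 and 8.36 at e16.5. The last stage stood more than 1 log2 unit above the one before it. The fitted change was 1.62 ± 0.38 (limma adjusted p = 0.0256), and it did not pass without the e13.5 pool (1.51, adjusted p = 0.0683) or the e16.5 pool (0.78, adjusted p = 0.14). Copz2 lies at chromosome 11, 96849876 to 96861203.

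Smaller rises were found for Arcn1 (delta subunit, 0.53 ± 0.13, limma adjusted p = 0.0307), Copg1 (gamma-1, 0.44 ± 0.08, adjusted p = 0.0137) and Copz1 (zeta-1, 0.40 ± 0.09, adjusted p = 0.0245), whose stage means were 9.12, 9.16, 9.23, 9.37 and 9.52. Each lost its call when some pools were left out. Arcn1 did so without e13.5, e15.5 or e16.5 (0.41 to 0.51, adjusted p from 0.0663 to 0.19) and Copg1 without e12.5, e13.5 or e16.5 (0.43 to 0.45, adjusted p from 0.055 to 0.0721). Copz1 did so without e12.5, e13.5 or e16.5 and without reaction 1 of e12.5 or of e15.5 (0.33 to 0.48, adjusted p from 0.053 to 0.131). Averaged over all probe sets of a gene on the chip, the changes of Arcn1 (0.27), Copg1 (0.13) and Copz1 (0.24) did not pass, and a dim probe set of Copg1 fell by 0.36 on the log2 scale. The remaining Copg1 probe sets did not pass. Their changes were -0.17 on chip A, from a set brighter than the chip median, 0.24 on chip B, and -0.15 and -0.12 on chip C.

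Other coatomer subunits and the ARF GTPases did not pass. The beta-prime subunit gene Copb2 had a change of 0.48 ± 0.15 (limma adjusted p = 0.0606), which passed with e12.5 left out (0.75, adjusted p = 0.0317), with e14.5 left out (0.48, adjusted p = 0.0481) and after cyclic loess (0.67, adjusted p = 0.0416). The beta subunit gene Copb1 had a change of 0.25 ± 0.12 and the alpha subunit gene Copa of 0.10 ± 0.10. A second, dimmer probe set of Copb1, on chip C, rose by 0.54 (limma adjusted p = 0.0291), and it may detect related transcripts. Arf4 had stage means of 9.14, 9.21, 9.13, 9.17 and 9.36, and Arf5 of 9.49, 9.45, 9.43, 9.46 and 9.25, with changes of 0.16 ± 0.11 and -0.18 ± 0.10. Arf1, the GTPase that recruits coatomer, had the smallest slope of the group, with log2 levels of 11.46 and 11.47 at e12.5, 11.57 and 11.55 at e13.5, 11.60 and 11.59 at e14.5, 11.73 and 11.61 at e15.5, and 11.47 and 11.51 at e16.5. Its first and last stage met at 11.47, with a change of 0.07 ± 0.11 (adjusted p = 0.692). Fitted changes of the coatomer subunit genes thus ran from 0.10 for Copa to 1.62 for Copz2.

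Of the 9 receptor genes 6 rose and none fell, and their median change of 0.62 was the highest of the 4 role groups. Tmed3 belongs to the p24 family, whose members ride in COPI and COPII vesicles and help to sort cargo. Its arrays had log2 levels of 7.78 and 7.81 at e12.5, 8.01 and 8.14 at e13.5, 8.65 and 8.61 at e14.5, 9.33 and 9.24 at e15.5, and 10.17 and 10.07 at e16.5. Every stage lay above the one before with no overlap. The fitted change was 2.34 ± 0.18 (limma adjusted p = 0.000684), or 5.08-fold, and a second, dimmer probe set rose by 0.41. Tmed3 lies at chromosome 9, 89699203 to 89705043.

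Kdelr3 encodes 1 of the KDEL receptors, which catch chaperones that escaped from the ER and return them. It had log2 levels of 6.20 and 6.22 at e12.5, 6.21 and 6.23 at e13.5, 6.40 and 6.42 at e14.5, 6.99 and 6.90 at e15.5, and 7.86 and 7.76 at e16.5. The first pair of stages overlapped and each later stage lay above. The change was 1.57 ± 0.28 (limma adjusted p = 0.0113), or 2.96-fold, and it was 0.95 (adjusted p = 0.0517) without the e16.5 pool. A second probe set rose by 0.54. Kdelr3 lies at chromosome 15, 79516408 to 79527739.

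Lman1 encodes the lectin ERGIC-53, which escorts glycoproteins out of the ER. Its log2 levels were 8.28 and 8.36 at e12.5, 8.48 and 8.40 at e13.5, 8.68 and 8.68 at e14.5, 9.17 and 9.03 at e15.5, and 9.35 and 9.31 at e16.5, with no overlap between stages. The change was 1.08 ± 0.11 (limma adjusted p = 0.0019), and a probe set on chip B rose by 1.01. The other three, on chips A and C, had changes of 0.17, -0.03 and -0.04 that did not pass, and those on chip A were dimmer than the median of that chip. Averaged over its chip A probe sets, the change of Lman1 was 0.41 (adjusted p = 0.0158). Another lectin gene, Lman2 (VIP36), peaked at e15.5 on its brightest probe set, with stage means of 7.67, 8.02, 8.26, 8.67 and 8.34. Its change of 0.79 ± 0.21 (adjusted p = 0.0408) did not pass without e12.5, e13.5 or e14.5 (0.54 to 0.80, adjusted p from 0.0556 to 0.247). Of the other Lman2 probe sets, 1 on chip B (0.40) and a dim 1 on chip A (0.52) also rose, and both were highest at e16.5. Another on chip B was highest at e15.5 and had a change of 0 that did not pass.

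Surf4, which encodes a cargo receptor for soluble secreted proteins, rose by 0.62 ± 0.12 (limma adjusted p = 0.0144) from 10.56 to 11.12, the means at e12.5 and e16.5. Tmed2, a second p24 gene, rose by 0.50 ± 0.11 (adjusted p = 0.0127). Leaving out e16.5 ended both calls (0.62, adjusted p = 0.0772, for Surf4 and 0.52, adjusted p = 0.0797, for Tmed2); Surf4 did not pass without e13.5 (0.61, 0.0503) nor Tmed2 without e12.5 (0.36, 0.101). The p24 gene Tmed9 had the smallest slope of the receptors, 0.03 ± 0.15 (adjusted p = 0.915). Its arrays had log2 levels of 8.03 and 7.97 at e12.5, 7.99 and 8.07 at e13.5, 7.71 and 7.75 at e14.5, 7.98 and 7.96 at e15.5, and 7.96 and 8.17 at e16.5, with e14.5 below all other stages. The remaining KDEL receptor genes did not pass. Kdelr1 had stage means of 10.18, 10.29, 9.94, 10.33 and 10.42 (change 0.21 ± 0.18) and Kdelr2 of 8.47, 8.20, 8.07, 8.67 and 8.94 (change 0.56 ± 0.28, adjusted p = 0.187); without the e12.5 pool Kdelr2 passed, at 1.12 (adjusted p = 0.0347).

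Among the SNAREs, tethers and Rab GTPases 3 of 11 genes rose, none fell and the median change was 0.16. Uso1 encodes p115, a long tether that links vesicles to the Golgi. Its log2 levels were 6.25 and 6.20 at e12.5, 6.46 and 6.33 at e13.5, 6.34 and 6.33 at e14.5, 6.69 and 6.68 at e15.5, and 6.81 and 6.79 at e16.5. The last pair of stages lay above the rest, and e13.5 and e14.5 overlapped. Its change of 0.58 ± 0.12 (limma adjusted p = 0.0172) did not pass without e12.5 (0.63, adjusted p = 0.0641) or e16.5 (0.53, adjusted p = 0.103). Uso1 lies at chromosome 5, 92137909 to 92202800.

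Rab1a, the GTPase that recruits p115, had log2 levels of 6.74 and 7.01 at e12.5, 7.07 and 7.0 at e13.5, 7.07 and 7.06 at e14.5, 7.27 and 7.19 at e15.5, and 7.29 and 7.23 at e16.5. The e12.5 reactions were the widest apart of these stages, and e15.5 and e16.5 overlapped. The change was 0.38 ± 0.09 (limma adjusted p = 0.0263). It did not pass without any 1 of the 5 pools or without reaction 1 of e12.5 (0.28 to 0.44, adjusted p from 0.0508 to 0.16), and a second probe set had a change of 0.01. Rab6a, a GTPase of traffic within and from the Golgi, rose by 0.36 ± 0.10 (adjusted p = 0.0431) on its brightest probe set, while another on the same chip fell by 0.65 on the log2 scale (adjusted p = 0.0078). Its call was lost without any 1 of the pools and without 7 of the 10 single arrays, reaction 1 of e13.5, e14.5 and e15.5 and reaction 2 of e12.5, e14.5, e15.5 and e16.5 (0.25 to 0.43, adjusted p from 0.0505 to 0.172), and the mean of its probe sets on the chip had a change of -0.15 (adjusted p = 0.234), so its direction is not settled.

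Bet1 had the second largest slope of this group without passing. This SNARE gene had log2 levels of 6.16 and 5.98 at e12.5, 5.73 and 5.81 at e13.5, 5.77 and 5.75 at e14.5, 6.34 and 6.38 at e15.5, and 6.42 and 6.36 at e16.5, with a change of 0.49 ± 0.22 (limma adjusted p = 0.143). With the e12.5 pool left out Bet1 passed, at 0.98 (adjusted p = 0.0321). Levels were lowest in the middle and highest at the last pair of stages, which overlapped. Its partner SNARE genes Stx5a (0.32 ± 0.18), Sec22b (0.16 ± 0.19), Gosr1 (0.07 ± 0.10) and Gosr2 (0.06 ± 0.10) did not pass. One of the dimmer probe sets of Gosr2 rose by 0.47 (adjusted p = 0.0213). Golga2, which encodes the Golgi matrix protein GM130, had a change of -0.02 ± 0.11, and Trappc3, a subunit of the TRAPP tether that activates RAB1, of -0.28 ± 0.12 (adjusted p = 0.129). Rab2a had the smallest slope, with log2 levels of 7.43 and 7.50 at e12.5, 7.43 and 7.63 at e13.5, 7.56 and 7.45 at e14.5, 7.36 and 7.28 at e15.5, and 7.53 and 7.62 at e16.5. For Rab2a the e15.5 arrays lay below those of all other stages, the e16.5 arrays lay above those of e12.5, and the change was 0.01 ± 0.13 (adjusted p = 0.975).

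Several of these proteins come as paralogs, and 9 pairs were compared by the slope of the difference of their log2 levels. The widest gap was between Sec23a and Sec23b. Sec23a minus Sec23b changed by -2.43 ± 0.23 over the 4 days (95% interval -3.15 to -1.70), with an exact 2-sided permutation p of 0.0167 over the 120 stage orders, which is the smallest they can give. After adjustment over the 9 pairs this was 0.0999, so no pair passed. With 120 orders, 1 pair alone at the smallest p could not pass after this adjustment, so not passing says little about a gap. Averaging all probe sets of a gene, the gap was -1.92.

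Kdelr3 had a steeper slope than both other KDEL receptor genes, without passing after adjustment. Kdelr1 minus Kdelr3 changed by -1.36 ± 0.32 (95% interval -2.38 to -0.34) and Kdelr2 minus Kdelr3 by -1.01 ± 0.19 (-1.62 to -0.39), each with an exact permutation p of 0.0333 and an adjusted p of 0.0999. Kdelr1 minus Kdelr2 changed by -0.35 (-1.19 to 0.49; exact permutation p = 0.2833). Sec24c minus Sec24d changed by -1.25 (-2.55 to 0.05; exact permutation p = 0.0833) and Copz1 minus Copz2 by -1.22 (-2.80 to 0.36; exact permutation p = 0.0667). Intervals of these last pairs include 0 and also gaps of over 2-fold. The pairs Sec24a and Sec24b (0.56, -0.35 to 1.47), Arf4 and Arf5 (0.35, -0.22 to 0.92) and Sar1a and Sar1b (-0.20, -0.40 to 0) had narrower gaps, with exact permutation p-values of 0.15, 0.1167 and 0.05. Probe sets differ in how fully they report a change, which these comparisons do not remove.

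**Figure D3:**
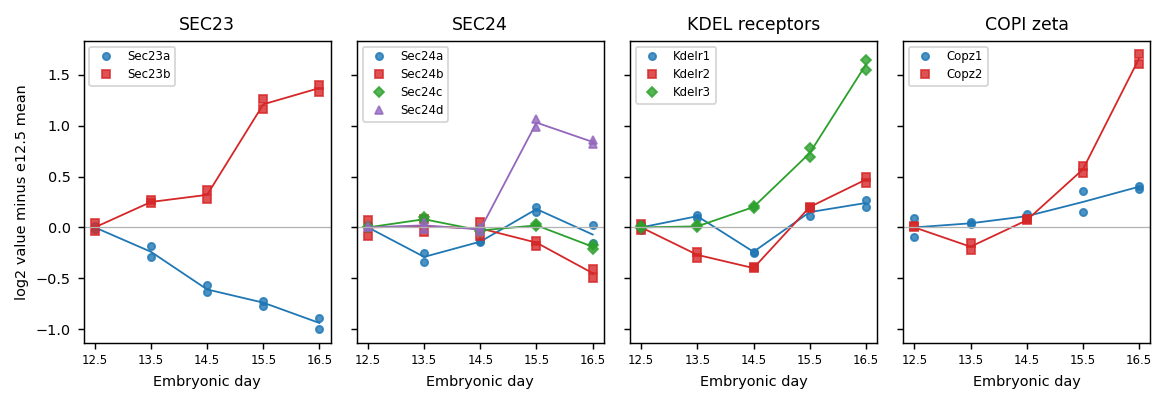
Log2 value on each array minus the gene's own e12.5 mean, against embryonic day, for SEC23, SEC24, KDEL receptor and COPI zeta paralogs; points are labelling reactions and lines join stage means. Sec23a and Sec23b separate in opposite directions, Kdelr3 ends 1.60 above its e12.5 mean and Copz2 ends 1.65 above its own.

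Between the ends of the series, the comparison of e16.5 with e12.5 called 7 of the 43 genes higher and 0 lower (limma with stage as a factor, adjusted p under 0.05 and at least 2-fold), beside 2.2% of all genes higher and 4.25% lower. At an adjusted p under 0.05 without the fold minimum, 26 were higher and 5 lower, beside 28.2% of all genes higher and 29.4% lower. The 7 were Tmed3 (5.01-fold), Arfgap3 (3.55-fold), Copz2 (3.14-fold), Kdelr3 (3.02-fold), Sec23b (2.57-fold), Cope (2.54-fold) and Lman1 (2.02-fold). Lman1 lay at the fold minimum, with a log2 difference of 0.97 without reaction 1 of e12.5 and 0.99 without reaction 1 of e16.5, and was not called there. Sec23a, 1.92-fold lower, and Sec24d, 1.79-fold higher, stayed under 2-fold. Both e16.5 arrays lay above both e12.5 arrays in 30 of the 43 genes and below them in 6; over all 15964 genes these numbers were 6435 and 6128. The median difference was 0.29, beside 0.02 over all genes.

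Consecutive stages were compared to place the change in time. From e12.5 to e13.5, 25 of the 43 differences were positive, with a median of 0.01, and 0 genes were called higher or lower, beside 0.125% and 0.0626% of all genes. From e13.5 to e14.5, 24 were positive, with a median of 0.01 and again 0 calls in either direction, beside 0.15% and 0.0251%. From e14.5 to e15.5, 37 were positive, with a median of 0.21 beside -0.01 over all genes. This was the step in which all 12 COPI genes, all 9 receptor genes and 8 of the 11 genes of each other group had a positive difference. Sec24d was the 1 gene called higher there (difference 1.04 ± 0.07, limma adjusted p = 1.15e-07), beside 0.47% of all genes, and 0 were called lower, beside 0.0752%. Sec23b (0.89) and Arfgap3 (0.84) came next. From e15.5 to e16.5, 29 were positive with a median of 0.07, Copz2 was called higher (1.09 ± 0.06, adjusted p = 8.04e-07), beside 0.313% of all genes, and 0 were called lower, beside 0.132%. Kdelr3 (0.86) and Tmed3 (0.84) had the next largest differences in that last step.

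Of the 17 rising genes, 10 had their largest step between e14.5 and e15.5, and all 17 had a positive difference there, with a median of 0.41. These 17 were picked by a slope through the same stage means, which favours positive steps, so these counts only describe them. The largest step fell in the first interval for 2, in the second for 2 and in the last for 3. Levels rose at every step in the stage means of 11 genes, Sec23b, Cope, Copg1, Copz1, Arfgap3, Kdelr3, Lman1, Surf4, Tmed2, Tmed3 and Rab1a. All 11 are among the 17 picked by slope. Sec23a was the 1 gene whose means fell at every step.

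**Figure D4:**
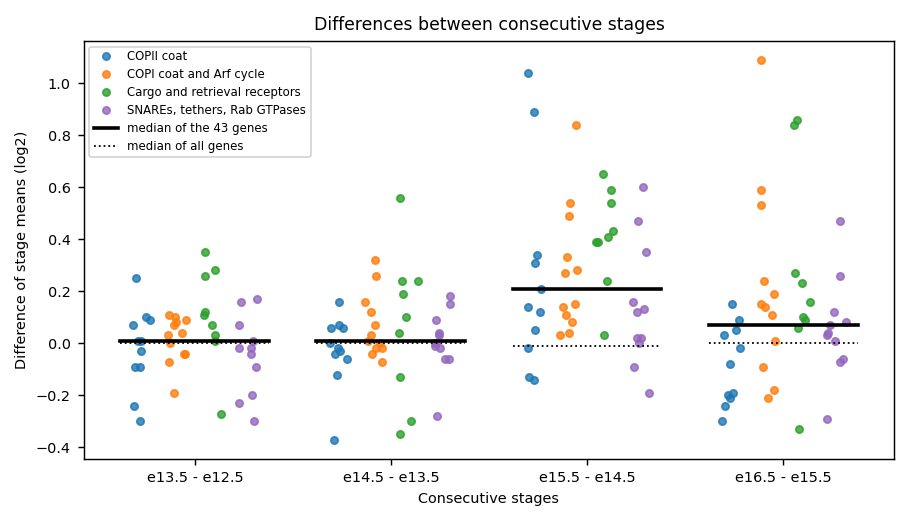
Difference of stage means (log2) for each of the 43 genes at the 4 consecutive steps, coloured by role, with the median of the 43 genes as a solid bar and the median of all genes as a dotted one. The third step, e15.5 minus e14.5, has a median of 0.21 for the 43 genes, and the other steps have medians of 0.01 to 0.07.

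Neighbouring stages of the secretory route were counted in the same stage trend, beside 11.9% rising and 17% falling over all genes. Of 31 genes for entry into the ER (translocon, signal peptidase, oligosaccharyl transferase), 20 rose (64.5%) and 1 fell (3.23%), with a median change of 0.86. The largest were Tram1, a translocon partner (1.98 ± 0.18), and Ssr2, a subunit of the translocon-associated TRAP complex (1.47 ± 0.17), while Sec61a2, a second form of the translocon's main subunit, fell by 1.51 on the log2 scale. Of 25 other genes listed with ER exit, 8 rose (32%) and 2 fell (8%), with a median of 0.18. This list also holds the transcription factor genes Creb3l1 and Creb3l2, counted again below, and Creb3l2 is 1 of the 2 that fell. Among these Tmed6, a p24 gene, rose by 3.50 ± 0.40 (limma adjusted p = 0.00118), and Mcfd2, the cofactor with which ERGIC-53 carries cargo, rose by 1.96 ± 0.23 (adjusted p = 0.00276) as Lman1 rose by 1.08. Ctage5, also called Mia2, an organiser of ER exit sites, rose by 1.12 ± 0.15. Of 18 other COPI and retrograde SNARE genes, 3 rose (16.7%, near the share of all genes) and none fell. The 3 were Nbas (0.44), Stx18 (0.43) and Arfgap2 (0.40).

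Genes of the Golgi body and of later compartments were counted in the same way, beside 11.9% rising and 17% falling over all genes. Of 45 other Golgi tethers, SNAREs and Rabs, 4 rose (8.89%) and 9 fell (20%), with a median of 0.04; the largest were Golga7 (-0.78, below the median of its chip), Trappc10 (0.69) and Gorasp2 (0.64), a Golgi stacking protein gene. Glycosylation enzymes split evenly, with 6 rising and 6 falling of 34 (17.6% each) and a median of -0.11; Mgat4a, which branches N-glycans, rose by 0.90, and C1galt1 (0.86) and Galnt4 (0.84), enzymes of O-glycan synthesis, rose from levels below the median of their chip. Of 24 genes of the trans-Golgi, clathrin and AP-1, 4 rose (16.7%) and 7 fell (29.2%), with a median of -0.14. There Pacs1 (-0.77), Igf2r, which encodes a mannose 6-phosphate receptor (-0.69), and Clint1 (-0.67) had the largest slopes. M6pr, another mannose 6-phosphate receptor gene of this list, had a change of 0.04 that did not pass. Of 32 endosome and retromer genes, 1 rose (Rab4a, 0.79; 3.12%) and 6 fell (18.8%), with Rab14 at -0.68 and Snx5 at -0.64 and a median of -0.24. The falling shares of the tether, glycosylation and endosome lists lay near that of all genes, and the difference between these lists was not tested.

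**Figure D5:**
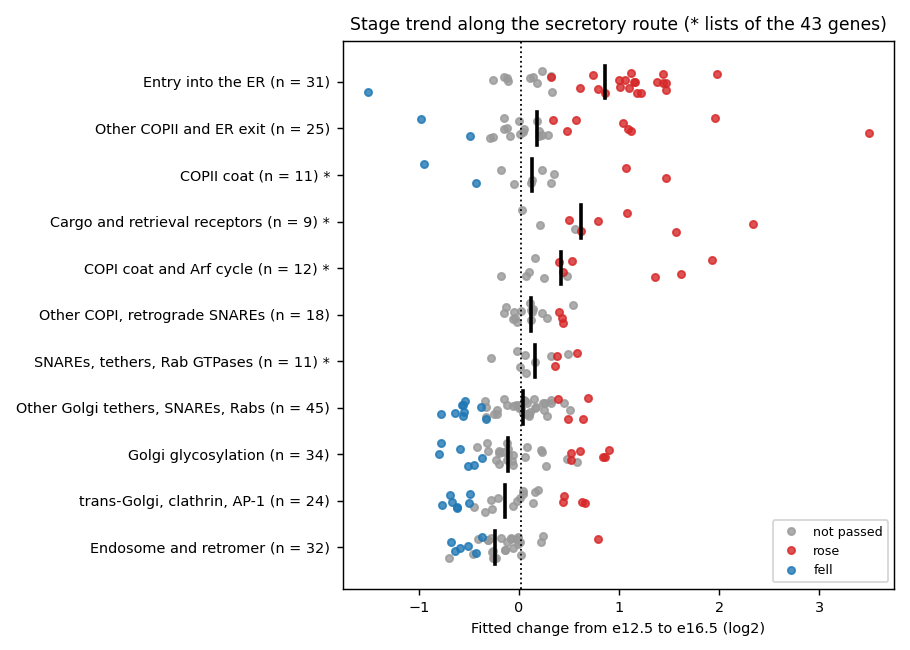
Fitted change from e12.5 to e16.5 (log2) for each gene of 11 lists ordered along the secretory route, red where it rose, blue where it fell and grey where it did not pass; black bars are list medians, the dotted line is the median of all genes and asterisks mark the lists of the 43 genes. Medians run from 0.86 for entry into the ER to -0.24 for endosome and retromer genes.

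Transcription factor genes of secretory capacity were read beside them. Of 9, 3 rose (33.3%) and 1 fell (11.1%), beside 11.9% and 17% of all genes. Bhlha15 (Mist1), a factor of secretory cell architecture, went from a mean log2 level of 5.73 at e12.5 to 8.92 at e16.5 and rose by 3.43 ± 0.23 (limma adjusted p = 0.000228). Xbp1, the transcription factor of the unfolded protein response named above, had stage means of 7.35, 7.82, 8.13, 8.57 and 8.73 and rose by 1.40 ± 0.11 (adjusted p = 0.000844). Atf4 rose by 0.62, and Creb3l2, a factor known to drive Sec23a in cartilage, fell by 0.98 on the log2 scale (adjusted p = 0.00549).

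Levels of cell type markers shifted over the same days, and their counts stand beside 11.9% rising and 17% falling over all genes. Summed on a linear scale, 16 acinar markers had values of 3569 and 3674 at e12.5, 9902 and 10255 at e13.5, 25853 and 25677 at e14.5, 55632 and 54333 at e15.5, and 90923 and 89020 at e16.5, and 15 of the 16 rose. The 43 traffic genes summed to 16743 and 16790 at e12.5, 17294 and 17077 at e13.5, 17124 and 17431 at e14.5, 21194 and 20447 at e15.5, and 22128 and 22603 at e16.5, so that the acinar sum grew at every stage and the traffic sum mostly after e14.5. Mesenchyme markers (11 genes, 6 fell, 1 rose) summed to 7241 and 7630 at e12.5 and 4678 and 4780 at e16.5, and neural and Schwann markers (7 genes, 6 fell) to 1399 and 1297 and to 661 and 603. Endocrine markers (12 genes, 5 rose, 2 fell) went from 6092 and 6184 to 10960 and 10272, duct and progenitor markers (8 genes, 4 rose, 1 fell) from 1080 and 1093 to 2649 and 2608, and leukocyte markers (9 genes, 1 rose, 2 fell) from 898 and 888 to 1572 and 1593. Proliferation genes (9 genes, 4 fell) went from 4096 and 4358 to 2281 and 2269, red cell markers (6 genes, 2 rose, 3 fell) from 18536 and 18559 to 8313 and 7958, and endothelial markers (7 genes, 1 rose, 3 fell) from 672 and 697 to 588 and 584. Linear sums follow the brightest genes of a list and need not show a shift of a whole cell type. Among endocrine markers Gcg, at 12.37 at e12.5, fell by 0.97, while Ins2 went from 5.28 to 12.34 at e16.5. Of red cell markers Hbb-y fell by 5.52 and Hba-a1 rose by 0.62. Of leukocyte markers C1qa rose by 1.72, C1qb and C1qc fell, and S100a8 reached 8.70 at e16.5 without a passing slope. The part of the marker shifts in the traffic genes' changes was not tested. In bulk tissue fewer cells of a type and less RNA per cell cannot be told apart.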

How the data were processed

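Expression was measured on 30 arrays of dorsal pancreas RNA (5 stages, 2 labelling reactions per pool, 3 chips). The deposited values are log2 levels per probe set, which the submitters' processing notes credit to RMA; the log base was inferred from their range, and software versions are not given in the sources used here. RMA evens out overall brightness, so a change in total RNA per cell is not seen. Array medians lay between 5.71 and 5.757 (chip A), 5.261 and 5.307 (B) and 3.993 and 4.025 (C). No detection calls were used, so background is unknown, and precision is limited by the number of arrays.

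Names came from the platform annotation, with symbols updated to RefSeq GRCm38.p6, which gave coordinates (29131 of 36701 had 1 symbol, 724 several, 6846 none). Probe sets of type _f_at (Sar1b), _r_at (Copb2), _s_at (Arcn1, Arf4, Kdelr3) and _g_at (Gosr2) can detect related transcripts or were built under relaxed rules. Limma 3.58.1 in R 4.3.3 fitted a line over embryonic day to the 5 pool means of each chip (change = slope over 4 days), and stage as a factor over the 10 arrays for contrasts, with a 2-fold minimum. P-values were adjusted over all probe sets of the 3 chips (Benjamini-Hochberg, 0.05). P-values measure the scatter of single pools about a line, or between labelling reactions, and not the spread between litters of a stage. Functions were tested on simulated data.

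The genes and lists were chosen with earlier results of these data known. Every gene is named; values on every array are given for the 3 largest absolute slopes and the smallest of each role, stage means for paralogs, and up to 3 genes of each other list with the largest passing slope, besides Xbp1 and Bhlha15. Atf4 was named after its value was seen. Levels were not compared between genes. Reaction numbers did not pair the samples: deviations of same-numbered arrays correlated between -0.18 and 0.11. Alternatives were other scalings, bright probe sets, an intensity trend, adjustment within chips, mean probe sets, other fold minimums, lines over the 10 arrays with and without a replicate block, and leaving out each array and each pool.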

Additional observations from a re-analysis of the deposited data

How the results depend on the processing

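The count of rising genes was 17 in the report, 8 without the e13.5 pool and 6 without the e16.5 pool, and 12, 15 and 14 without the e12.5, e14.5 and e15.5 pools. It was 15 to 17 with single arrays left out, 16 to 20 under other scalings, bright probe sets, an intensity trend or adjustment within chips, and 13 where a gene's probe sets were averaged. The count of falling genes was 2 in the report, 1 among bright probe sets and without the e13.5, e14.5 or e16.5 pool, and 1 to 2 with single arrays left out, the lost gene being Sec24b. Over the 10 arrays, 22 rose and 3 fell with the reaction number as a replicate block and 23 and 3 without it, where 3545 and 3701 of all genes rose. The fits over the 10 arrays count both labelling reactions of a pool as separate samples, which overstates the number of samples. All genes rising came to 1902, and to 1018, 1143 and 754 without the e12.5, e13.5 and e16.5 pools; all genes falling came to 2709, and to 4090 over the 10 arrays and 1299 without the e16.5 pool. With a 1.5-fold minimum 9 genes were higher and 1 lower at e16.5 than at e12.5 (5.68% and 12.5% of all genes) and 8 were called in any consecutive step (5.74% of all genes). With no fold minimum 26 were higher, 5 lower and 28 called in a step, beside 28.2%, 29.4% and 40.9% of all genes. The contrast counts of 7 and 0 were the same with a replicate block, and higher calls were 6 to 7 with single arrays left out. Rab6a was the 1 gene to reverse, at -0.15 with the mean of its probe sets. No paralog pair passed with averaged probe sets or with arrays centred on their median, the alternatives run for pairs. With 120 stage orders, 1 pair alone at the smallest p could not pass there either, so this says little about the gaps. Of 19 called genes, 6 kept the call under every alternative, and of 24 others 17 stayed below the threshold under every alternative. The cause of these differences was not tested. Values below the median of a chip, as for Preb and Sec24b, are not shown to be above background.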

Other observations

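The promoter elements were also counted over all genes on the arrays with a promoter. Of 136 genes with the unfolded protein response element TGACGTGG, 15 rose (11.0%) and 23 fell (16.9%), beside 11.8% and 17.5% of the 12558 without it. Among the 136, Isg20 (1.99), Arfgef3 (1.89), Kdelr3 (1.57), Smim14 (1.56) and Slc39a5 (1.48) had the largest positive fitted changes, and Btbd7 (-1.42), Xiap (-1.22), Ptprg (-1.20), Pard3 (-1.13) and Sec23a (-0.95) the largest negative ones. The ER stress element, which none of the coat and Golgi traffic genes held, was found in 18 genes on the arrays, of which 9 rose (50%) and 1 fell, beside 11.7% rising without it. The ER stress element II was found in 9, of which 4 rose and 1 fell. The genes were named after their values were seen, and no test was made of these counts.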
